A study of Mus musculus with 200 samples.

Results

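A set of 10 mouse genes of the heat shock protein families was followed through the brain transcriptome after closed head injury (CHI). They were the rows of the gene count table whose gene name was Hspa1a, Hspa1b, Hspa5, Hspa8, Hsp90aa1, Hsp90ab1, Hsph1, Dnajb1, Hspb1 or Hspe1. These were 10 of the 56941 genes in the table. The rows were picked by gene name alone, but the set was chosen with earlier results of these data known. All 10 passed the filter on low counts in every comparison.

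Heat shock proteins are molecular chaperones that bind unfolded stretches of other proteins and help them to fold, refold or be degraded. HSP70 proteins (Hspa genes) work through cycles of ATP binding that J-domain partners such as Dnajb1 start and nucleotide exchange factors such as Hsph1 complete, and HSP90 proteins (Hsp90aa1, Hsp90ab1) take over many of their clients. When unfolded protein accumulates in the cytosol, the transcription factor HSF1 binds heat shock elements in the promoters of stress-inducible members such as Hspa1a and Hspa1b, while stress in the endoplasmic reticulum raises its resident HSP70, Hspa5 (BiP), through a separate element. In the brain, Hspa8 and the HSP90 genes are expressed constitutively at high levels in neurons, and inducible Hspa1a and Hspa1b are widely used as markers of cellular stress after injury.

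RNA was sequenced from one hemisphere of each of 200 mice, 67 of them after sham surgery (anaesthesia and incision, no impact) and the rest after CHI (one impact on the intact skull under isoflurane, through a scalp incision), collected 9, 24 or 72 h later. The strains were C57BL/6J (61 mice) and 3 IL-1R1 lines, gKO (55 mice), eRestore (50 mice) and nRestore (34 mice). In the order 9, 24 and 72 h, C57BL/6J had 15, 14 and 14 CHI mice with 6 sham mice each time, the mice labelled IL-1R1 gKO had 13, 12 and 12 with 6 each time, eRestore had 12, 9 and 12 with 6, 5 and 6, and nRestore had 6, 8 and 6 with 4, 5 and 5. The labels gave 98 males and 102 females aged 3.3 to 7.67 months, and all nRestore mice at 72 h were labelled male.

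The labels name IL-1R1, the receptor for interleukin-1, in 3 of the 4 strains, but the sources used here do not say how the alleles were built or which cells carry the receptor in eRestore and nRestore. Il1r1 did not show its loss: its median was 2.00 TPM (transcript share corrected for gene length and library total) in C57BL/6J, 3.94 in mice labelled IL-1R1 gKO, 3.09 in eRestore and 3.83 in nRestore. Which part of the gene was altered is not given, so these reads check neither that label nor the others. Total counts ran from 14857985 to 57355675 per mouse (median 20258935). Xist and Ddx3y went with the labelled sex in all but 2 mice. Those 2, labelled male, carried Xist without Ddx3y. They were eRestore sham replicate 4 at 24 h and nRestore CHI replicate 6 at 72 h. The 3 experiments of the 9 h mice were not among the 5 experiments of the later times. The paper's account of surgery and tissue for RNA covers C57BL/6J mice, and is taken here to hold for the IL-1R1 lines. By that account, surgeries took place in the morning, so that 9 h tissue came from another time of day. C57BL/6J CHI mice had a median age of 4.43 months at 9 h but 6.77 at 72 h. Time after surgery, experiment, time of day and age therefore cannot be told apart between 9 h and the later times. CHI and sham mice of the same time came from shared experiments, but not evenly. At 24 h, NiL-1-21 held 18 CHI mice and 1 sham mouse, NiL-1-24 held 8 and 12, and eIL-1-38 held 17 and 9. The main fits had no term for experiment, so at 24 h surgery and experiment are partly tied. In bulk tissue, fewer cells of a type and less RNA per cell cannot be told apart either.

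The members differed widely in level. Length-corrected medians over the 200 mice put Hspa8, the constitutive cytosolic HSP70, at 1984 TPM (33rd of 56941 genes), Hsp90ab1 at 1451 TPM and Hsp90aa1 at 1273 TPM. The HSP110 exchange factor Hsph1 followed at 278 TPM, Hspa5 at 218 TPM, the mitochondrial co-chaperonin Hspe1 at 140.6 TPM and the J-domain protein Dnajb1 at 38.6 TPM. At the low end stood the small heat shock protein Hspb1 at 9.74 TPM and the inducible pair, Hspa1a at 7.66 TPM and Hspa1b at 7.61 TPM. These last 2 medians did not differ beyond the spread between mice. In GRCm39 the inducible pair lies on the minus strand of chromosome 17, Hspa1b (ENSMUSG00000090877) at chr17:35175412-35178214 and Hspa1a (ENSMUSG00000091971) at chr17:35188166-35191132. Hspa5 (ENSMUSG00000026864) lies at chr2:34661982-34668880, Hspb1 (ENSMUSG00000004951) at chr5:135916760-135918417 and Hspe1 (ENSMUSG00000073676) at chr1:55127260-55130476, all on the plus strand, and counts were taken over whole genes.

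Values per mouse are given below as normalised read counts, that is counts divided by the TMM-scaled library size and multiplied by the mean scaled library size of all mice. TPM was used to order the genes and to describe Il1r1, the sex genes, summed markers and, once, Hsp90aa1, and no main test used it. Its median over 20086 genes moved between times, by +0.11 (log2) from 9 h to 24 h and +0.10 to 72 h in sham mice and by +0.12 and +0.14 in CHI mice. TPM values of different times carry that shift. A gene was called at a Benjamini-Hochberg adjusted p under 0.05 in edgeR's quasi-likelihood test over all genes tested, with sex and age as covariates. The percentage of all tested genes called is given beside the members' count for the main fits, but not for the alternative settings. Differences are log2 fold changes with their standard errors (SE).

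**Figure D1:**
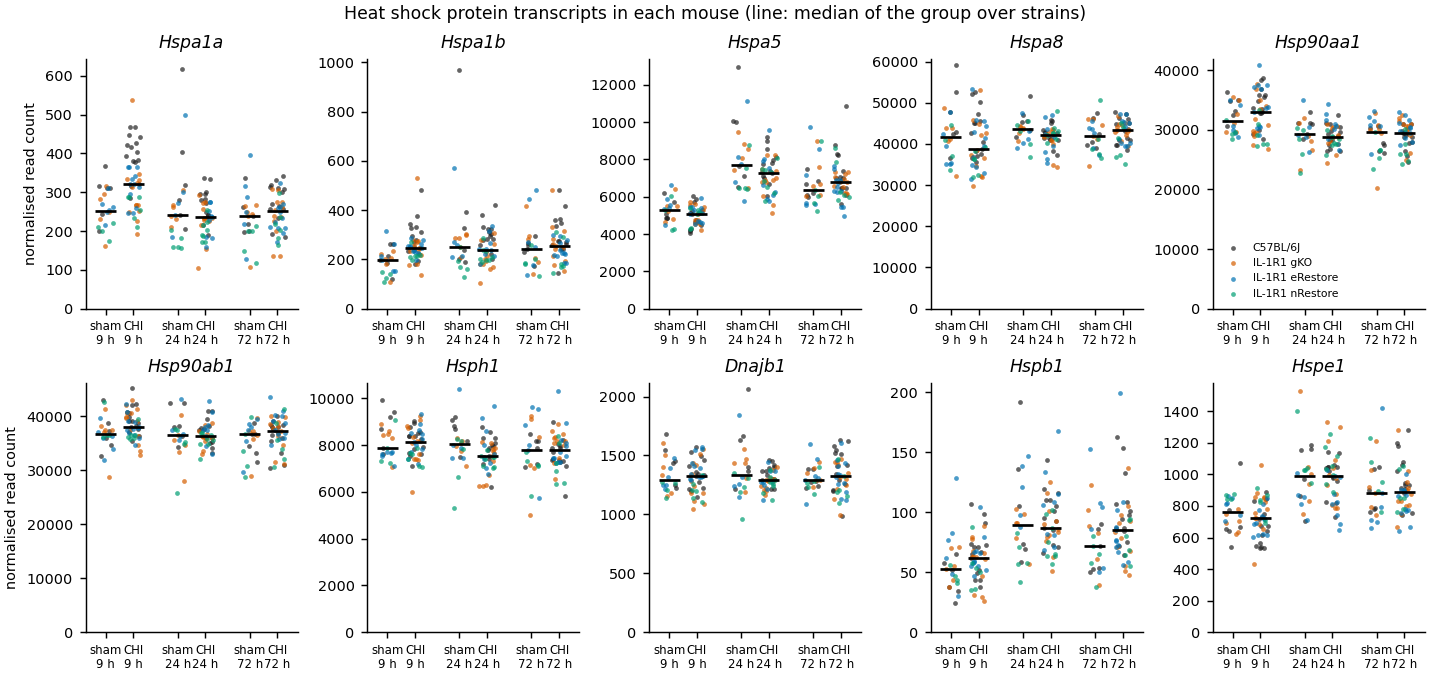
Normalised read counts (vertical axes, from 0) of the 10 members in every mouse, in sham and CHI groups at 9, 24 and 72 h, coloured by strain, with a line at the median over strains. Hspa1a and Hspa1b stand higher in CHI than in sham mice at 9 h, and Hspa5, Hspb1 and Hspe1 stand higher at 24 h than at 9 h in both surgeries.

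The promoters of the members the results turn on are shown first, since they carry the elements through which such genes are known to be induced. Sequences are RefSeq's (GRCm39), 150 bases before the RefSeq start, read 5′ to 3′ on the gene's strand. They are Hspa1a (chr17:35191133-35191282, minus strand), Hspa1b (chr17:35178215-35178364, minus strand), Hspb1 (chr5:135916623-135916772, plus strand), Hspe1 (chr1:55127157-55127306, plus strand) and Hspa5 (chr2:34661952-34662101, plus strand). Capitals mark the units of a heat shock element in the first 4 and both parts of an endoplasmic reticulum stress element in Hspa5. The 3 plus-strand windows run past the annotated start of the gene, and both Hspa1 windows end just before it.
Hspa1a: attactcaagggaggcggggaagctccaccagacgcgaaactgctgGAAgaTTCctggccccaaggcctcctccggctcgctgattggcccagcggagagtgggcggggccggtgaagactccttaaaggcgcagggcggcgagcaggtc
Hspa1b: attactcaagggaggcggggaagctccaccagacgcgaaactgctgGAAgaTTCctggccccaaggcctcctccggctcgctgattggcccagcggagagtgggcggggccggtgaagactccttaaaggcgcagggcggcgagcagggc
Hspb1: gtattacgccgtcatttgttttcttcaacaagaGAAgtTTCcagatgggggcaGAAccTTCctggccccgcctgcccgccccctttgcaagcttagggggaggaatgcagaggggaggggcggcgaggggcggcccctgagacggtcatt
Hspe1: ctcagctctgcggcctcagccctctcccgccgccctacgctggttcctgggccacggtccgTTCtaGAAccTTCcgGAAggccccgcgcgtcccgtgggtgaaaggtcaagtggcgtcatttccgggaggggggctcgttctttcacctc
Hspa5: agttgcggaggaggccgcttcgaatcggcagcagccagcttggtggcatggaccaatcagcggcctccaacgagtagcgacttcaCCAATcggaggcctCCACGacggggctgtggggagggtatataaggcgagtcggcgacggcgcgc

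The Hspa1a and Hspa1b windows were alike in all but 1 of 150 bases, and the element stood at the same place, 104 bases before the start. A heat shock element of 2 units was searched as GAA and TTC, in either order, with 2 bases between, which reads alike on both strands, in 300 bases around each start (250 before, 50 after). It was found in 5 of the 7 members in the promoter table (Hspa1a, Hspa1b, Hspb1, Hspe1 and Hsph1) and in 15.1% of 32851 promoters. With 1 more alternating unit, which contains the shorter element, it was found in Hspe1 and Hsph1 and in 0.603% of all promoters. The endoplasmic reticulum stress element (CCAAT and CCACG with 9 bases between, both strands) was found in Hspa5 and in 0.119% of all promoters. Promoters of Hspa8, Hsp90aa1 and Hsp90ab1 were not analysed here, and a match in these letters is no evidence of binding.

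The first question was which members differed between CHI and sham mice at 9 h. The inducible pair was higher after CHI over the 4 strains, and no other member was called. Counts of Hspa1a ran from 161.01 to 367 in the 22 sham mice (median 250.9) and from 193.2 to 537 in the 46 CHI mice (median 321). The groups overlapped, and the difference with strain, sex and age as covariates was +0.32 (SE 0.066, 95% interval 0.19 to 0.45, adjusted p = 0.000138), a fold of 1.2498. For Hspa1b, sham mice ran from 108.8 to 314 (median 198.2) and CHI mice from 136.2 to 530 (median 247), and the difference was +0.42 (SE 0.089, 95% interval 0.24 to 0.59, adjusted p = 0.000239), a fold of 1.34. Thus 2 of 10 members were called, both higher, where 23.9% of 18741 genes were called.

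The other 8 members differed by little on this scale, and several intervals were narrow. The abundant Hspa8 (-0.08, 95% interval -0.18 to 0.02), Hsp90aa1 (+0.02, -0.05 to 0.09) and Hsp90ab1 (+0.06, -0.00 to 0.12) had adjusted p = 0.295, 0.713 and 0.179. Hsph1 (-0.03, -0.09 to 0.03) and Dnajb1 (-0.03, -0.10 to 0.04), the partners of inducible HSP70 in refolding, had adjusted p = 0.574 and 0.587. Hspe1 was at -0.06 (adjusted p = 0.54) and Hspa5 at -0.09 (adjusted p = 0.0998). Hspb1, a low-count gene, had the widest interval, -0.07 to 0.41 around +0.17 (adjusted p = 0.354). Hspa5 was called lower without eRestore sham replicate 4 (-0.11, adjusted p = 0.038) and Hspe1 without the mice labelled gKO (-0.17, adjusted p = 0.0462).

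Within C57BL/6J, Hspa1a was called alone. Its counts ran from 201 to 367 in 6 sham mice (median 311) and from 285 to 469 in 15 CHI mice (median 404). Of the CHI mice, 12 stood above all sham mice, and the difference was +0.44 (SE 0.10, adjusted p = 0.00341), 1 of 10 members in a comparison that called 14.1% of genes. Within the single experiment with the most mice it was +0.32 and lost the call (adjusted p = 0.117). Hspa1b ran from 121.4 to 263 in sham mice (median 205) and from 180 to 482 in CHI mice (median 279), with 9 CHI mice above every sham mouse, at +0.45 (SE 0.16, adjusted p = 0.0683). Hspb1 was at +0.55 (SE 0.20, adjusted p = 0.064), from 24.6 to 65.3 in sham mice (median 44.7) against 37.7 to 106.5 in CHI mice (median 67.0). DESeq2 with its own size factors put both past the threshold (adjusted p = 0.0323 and 0.036). In edgeR, Hspa1b passed without sham replicate 5 (+0.59, adjusted p = 0.0219) and Hspb1 without sham replicate 4 (+0.67, adjusted p = 0.0354).

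In the mice labelled IL-1R1 gKO, Hspa1a had medians of 265 in sham and 268 in CHI mice, and Hspa1b of 202 and 238. One CHI mouse held the highest count of both at this time, 537 and 530. The differences were +0.26 (SE 0.15, adjusted p = 0.575) and +0.43 (SE 0.20, adjusted p = 0.436), in a comparison that called 0.199% of genes. In eRestore mice Hspa1a had medians of 257 and 321, with 8 of 12 CHI mice above all 6 sham mice, at +0.28 (SE 0.092, adjusted p = 0.063). It passed with DESeq2 and its own size factors (adjusted p = 0.0298) and without sham replicate 6 (adjusted p = 0.029). Hspa1b there had medians of 206 and 249 and was at +0.18 (SE 0.13, adjusted p = 0.407), where 7.34% of genes were called.

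In nRestore mice Hspa1b did not overlap between the surgeries, but it was not called. The 4 sham mice had counts of 108.8, 125.8, 141.02 and 146.9, and the 6 CHI mice ran from 196.7 to 271 (median 213). The share of all genes without overlap in groups this small was not counted. The difference was +0.66 (SE 0.14), just short of the threshold (adjusted p = 0.0504), in a comparison that called 0.608% of genes. It was called without sham replicate 2 (adjusted p = 0.0421), as was the constitutive Hspa8 (-0.27, adjusted p = 0.0485), and DESeq2 with its own size factors called both (adjusted p = 0.00711 and 0.0124). Hspa1a was at 175.4, 201.3, 210.3 and 221.5 in the sham mice against 209 to 289 (median 270) in CHI mice, with 5 of 6 CHI mice above all sham mice, at +0.40 (SE 0.15, adjusted p = 0.256). At 9 h nRestore came from 1 experiment, and 5 of its 6 CHI mice and 3 of its 4 sham mice were female.

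**Figure D2:**
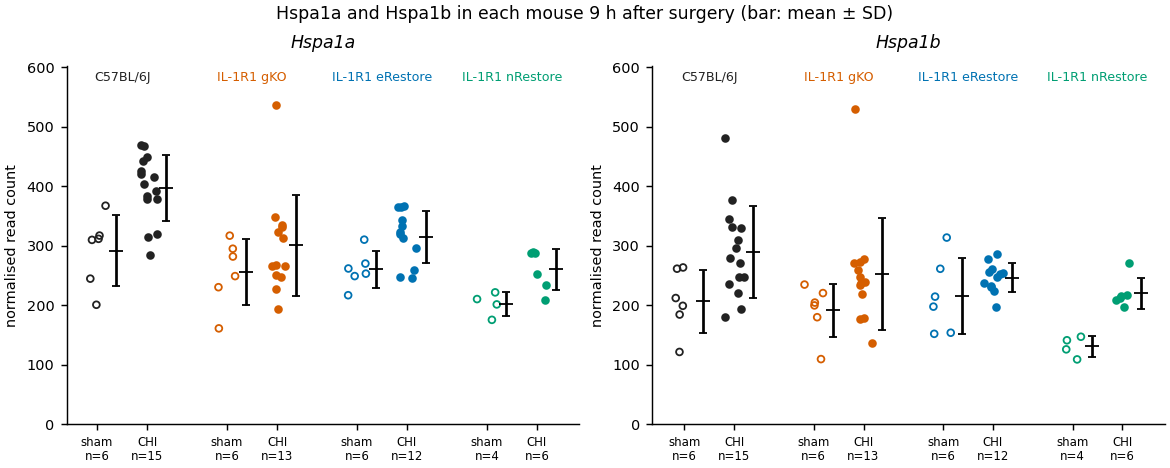
Normalised read counts of Hspa1a (left) and Hspa1b (right) in each mouse at 9 h by strain, open points for sham and filled points for CHI, with mean ± SD beside each group. The CHI mean is above the sham mean in all 4 strains for both genes. In mice labelled gKO the medians of Hspa1a are 265 in sham and 268 in CHI mice. Only Hspa1b in nRestore mice (4 sham, 6 CHI) shows no overlap, and the share of all genes without overlap was not counted.

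Hspa1a and Hspa1b are neighbours on chromosome 17 and share most of their sequence, so reads of one can be counted for the other: 63.8% of the 31-base words of Hspa1a transcripts also occur in Hspa1b, and 67.6% of those of Hspa1b in Hspa1a. The counts were therefore also summed. The sum was +0.37 (SE 0.066, adjusted p = 1.85e-05) over all strains, +0.45 in C57BL/6J (adjusted p = 0.00522), +0.34 in mice labelled gKO (adjusted p = 0.488), +0.23 in eRestore (adjusted p = 0.0572) and +0.51 in nRestore (adjusted p = 0.0472). For the other members the largest share with another gene was 46.5% for Hspb1 (with the pseudogene Hsp25-ps1), 38.8% for Hspa5 (with Rabepk, which it neighbours), 36% for Hsp90aa1, 21.8% for Hsp90ab1, 16.9% for Hspa8, 15.5% for Hspe1, 7.35% for Hsph1 and 0.236% for Dnajb1.

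The direction was alike within the 3 experiments that held 9 h mice. Fitted alone, Hspa1a was +0.42 (SE 0.16) in TM-2-33, +0.19 (SE 0.081) in eIL-1-76 and +0.47 (SE 0.11) in eIL-1-80. Hspa1b was +0.71 (SE 0.22), +0.23 (SE 0.11) and +0.50 (SE 0.15) in the same order. Only eIL-1-80 gave calls by itself (adjusted p = 0.00774 and 0.0466). Over 36 alternatives, single experiments included, the CHI difference stayed positive in all of them for both genes and was called in 34.

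Some cell type markers were also called between CHI and sham mice at 9 h, where 23.9% of all genes were called. Of 5 microglial markers 4 were lower, with summed levels of 130 to 279 TPM in sham mice (median 183.9) and 77.5 to 253 TPM in CHI mice (median 154.5). All 4 choroid plexus markers were lower, with sums of 9.36 to 6193 TPM against 4.76 to 2496 TPM. Of 5 endothelial markers 3 were higher and 1 was lower, with sums of 134.3 to 263 TPM against 148.9 to 337 TPM. Neurons had 1 of 6 markers higher, astrocytes 2 of 5, pericytes and smooth muscle 2 of 4, and oligodendrocytes and erythrocytes none of 5 each. Erythrocyte sums ran from 3.16 to 764 TPM in sham mice (median 24.6) and from 3.91 to 1385 TPM in CHI mice (median 167.7). The median log2 fold change of the 5 erythrocyte markers was +1.17, though none was called. Of 4 blood leukocyte markers only 1 passed the count filter. The part of these differences in the Hspa1 result was not tested.

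The strains did not differ detectably in the CHI effect on any member. The joint test of strain by surgery called 0 members at 9, 24 and 72 h with edgeR, where it called 0.00534%, 0.00541% and 0.00543% of genes. At unadjusted p under 0.05 there were 0, 1 and 0 members, and 6.5%, 5.62% and 2.9% of genes. Against C57BL/6J at 9 h, the effect on Hspa1b differed by +0.01 (SE 0.23) in mice labelled gKO, -0.28 (SE 0.23) in eRestore and +0.24 (SE 0.28) in nRestore, and that on Hspa1a by -0.16 (SE 0.18), -0.18 (SE 0.18) and -0.11 (SE 0.21). These errors leave room for differences as large as the effect itself. Sham mice also did not differ between strains in any member past the threshold, with 0.485%, 1.16% and 0.323% of genes called at 9, 24 and 72 h and 1, 2 and 1 members at unadjusted p under 0.05, as were 9.16%, 18.5% and 9.96% of genes.

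The CHI effect on the members did not differ past the threshold between males and females either. No member was called at 9, 24 or 72 h, where the test called 0%, 0% and 0.00543% of genes. At 24 h the effect was more negative in males for all 10 members (median -0.18, range -0.71 to -0.06), and 7 of them had an unadjusted p under 0.05, as had 5.26% of all genes, but the lowest adjusted p was 0.881. The sham mice with the most Hspa1b at 24 h in C57BL/6J (replicate 6) and in eRestore (replicate 3) were both male. Without them, a choice made after their values were seen, all 10 members stayed more negative in males. Then 1 member had such a p, where 4.25% of all genes did, and the lowest adjusted p was 0.998. The members were measured in the same mice and many vary together, so their shared sign is not 10 separate results. How many of all genes share that sign is not given here. In these tests eRestore sham replicate 4 at 24 h, which carried Xist without Ddx3y, was kept as male. At 9 and 72 h 0 members had an unadjusted p under 0.05 (2.29% and 3.8% of genes), and at 9 h the differences ran from -0.20 to 0.11.

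Relatives and partners of the members were counted from lists of 86 chaperone genes. At 9 h over all strains 10 were higher and 19 lower of 86 tested, where 23.9% of all genes were called. By list, 2 were higher and 3 lower of 10 HSP70 and HSP110 relatives, 2 and 3 of 16 J-domain genes, 1 and 3 of 12 HSP90 relatives and co-chaperones, 2 and 0 of 9 nucleotide exchange factors and partners, and 2 and 2 of 7 small heat shock proteins. Of 7 mitochondrial chaperones 1 was higher and 1 lower, of 8 subunits of the TRiC chaperonin none was called, of 19 endoplasmic reticulum genes 0 were higher and 5 lower, and of 6 heat shock factors and regulators 1 was higher and 2 were lower. In C57BL/6J 2 were higher and 11 lower of 85 tested (14.1% of all genes called). Lower in C57BL/6J were 2 HSP90 co-chaperones, Chordc1 (-0.68, SE 0.13, adjusted p = 0.00153) and Ahsa2 (-0.43, adjusted p = 0.000259), the J-domain genes Dnajb5 (-0.53) and Dnaja4 (-0.36), and the HSP110 relative Hspa4 (-0.18). The disulphide isomerases Pdia4 (-0.38) and Pdia6 (-0.35) and the collagen chaperone Serpinh1 (-0.40) of the endoplasmic reticulum were lower as well. So were the mitochondrial chaperones Clpb (-0.16) and Hspd1 (-0.15), of which Hspd1 is the partner of Hspe1, and the small heat shock protein Hspb3 (-1.01, SE 0.30, adjusted p = 0.0215). Higher were Hspb6 (+0.64, adjusted p = 0.0137), another small heat shock protein, and Bag5 (+0.27, adjusted p = 0.00145), a nucleotide exchange factor of HSP70.

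At 24 h no member was called in any strain by edgeR. The comparisons called 0.404% of genes in C57BL/6J, 0.0059% in mice labelled gKO, 0% in eRestore and 0% in nRestore. At unadjusted p under 0.05 there were 5, 6, 4 and 1 members, where 9.07%, 8.86%, 9.05% and 4.34% of genes had such a p. In C57BL/6J, DESeq2 with its own size factors called Hsp90aa1 (-0.12, adjusted p = 0.0263), and edgeR with no count filter called Hspa1a (-0.30), Hspa5 (-0.25) and Dnajb1 (-0.21), with adjusted p = 0.0292, 0.000197 and 0.0141. The share of all genes called in these alternative settings is not given here, so these calls are not set against a background. The fit over all strains called 1.48% of genes and 0 members, and 5 members had an unadjusted p under 0.05, as had 14% of genes.

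All 10 differences over strains were negative at 24 h, with a median of -0.10 against -0.00 over all genes. Without the 2 sham mice named above that held the most Hspa1b, Hsp90ab1 was at 0.00795 and Hspb1 at 0.0408, and the other 8 stayed negative. Hspa5 had 5752 to 12940 normalised counts in 22 sham mice (median 7712) and 5146 to 9593 in 43 CHI mice (median 7248), at -0.22 (SE 0.064, adjusted p = 0.0577). Dnajb1 had 962 to 2063 in sham mice (median 1336) and 1118 to 1460 in CHI mice (median 1292), at -0.13 (SE 0.039, adjusted p = 0.0715). Neither group stood apart, the sham mice reaching higher in both genes. Hspa8 (-0.09, adjusted p = 0.118), Hsph1 (-0.11, adjusted p = 0.183), Hspa1a (-0.20, adjusted p = 0.335) and Hspa1b (-0.24, adjusted p = 0.384) followed.

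These 24 h values depended on which mice entered, and CHI and sham mice were spread unevenly over the 24 h experiments. Without nRestore 4 members were called lower, Hspa5 (-0.30, adjusted p = 0.0155), Dnajb1 (-0.19, adjusted p = 0.00672), Hspa8 (-0.13, adjusted p = 0.0144) and Hsph1 (-0.16, adjusted p = 0.0219), whereas leaving out any 1 sham mouse gave 0 to 2 calls. The share of all genes called in these alternatives is not given here, so the counts are not set against a background. Hspa5 was called without C57BL/6J replicate 3 or 4, eRestore replicate 2 or 4, gKO replicate 1 or nRestore replicate 2 or 5 (-0.24 to -0.23), and Dnajb1 without C57BL/6J replicate 3 or 4, eRestore replicate 2 or nRestore replicate 1 (-0.15 to -0.14). In mice labelled gKO, Hspa1b was lower in CHI mice, 7 of 12 standing below all 6 sham mice, at -0.58 (SE 0.17, adjusted p = 0.241). In nRestore it was at +0.35 (SE 0.17, adjusted p = 0.955). The joint test gave Hspa1b an unadjusted p of 0.111 between the 4 strains.

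Of the chaperone lists, 1 gene was higher and 9 were lower at 24 h of 85 tested, where 1.48% of genes were called. The endoplasmic reticulum list held 5 of the 9, with a median of -0.11 over its 19 genes, and the HSP90 list 2 of its 12. No marker list moved as a whole, since at most 1 marker of a cell type was called in each direction.

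At 72 h no member was called in any strain (0% of genes in C57BL/6J, 0% in mice labelled gKO, 0.00605% in eRestore and 0.0121% in nRestore) or over all strains (0.706%). The 10 differences over strains ran from -0.02 to 0.19, with Hspa1a at +0.06 (95% interval -0.11 to 0.22) and Hspa1b at +0.01 (-0.20 to 0.22). At unadjusted p under 0.05 there were 0 members over all strains (7.46% of genes), 1 in C57BL/6J (5.15%) and 1 in nRestore (5.63%). DESeq2 with its own size factors and with gene-length offsets also called 0 in these fits, and no chaperone list gene was called over all strains.

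**Figure D3:**
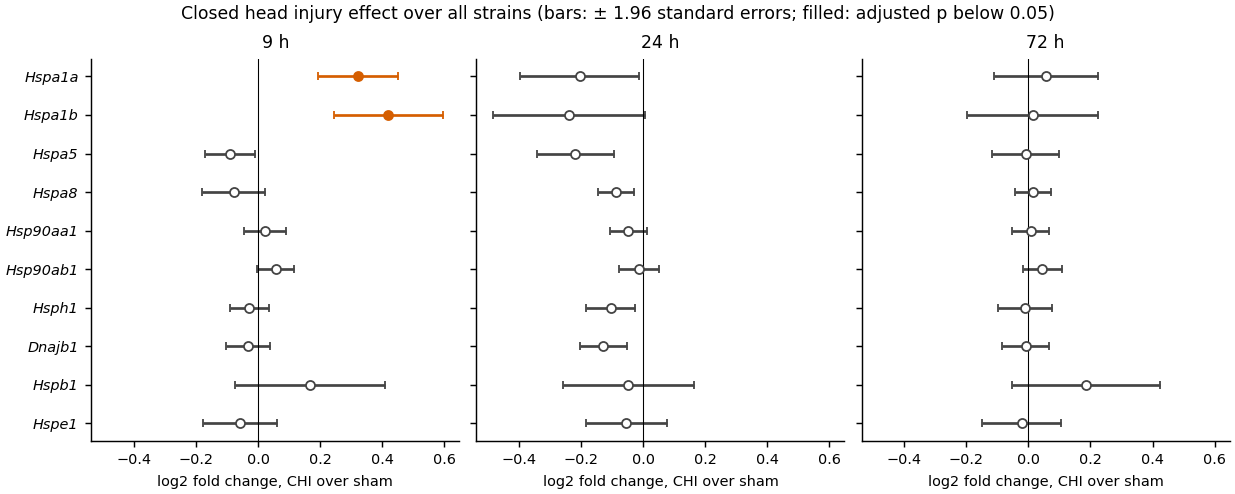
Log2 fold change of CHI against sham over all 4 strains for each member at 9, 24 and 72 h, with bars of the 95% interval and filled points for calls. Only the 9 h points of Hspa1a (+0.32) and Hspa1b (+0.42) were called, and the 24 h points lie below 0 with all sham mice included.

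The CHI effect itself was then compared between times in 1 fit of all 200 mice, with strains weighted equally. From 24 h to 9 h it was larger by 0.49 for Hspa1a (SE 0.12, adjusted p = 0.00177) and by 0.62 for Hspa1b (SE 0.15, adjusted p = 0.00291), 2 of 10 members where 9.37% of genes were called. Part of this rested on high sham values at 24 h. In C57BL/6J sham replicate 6 held 970 counts of Hspa1b, where the other 5 sham mice held 190 to 394, and in eRestore sham replicate 3 held 571 against 209 to 270. Without these 2 mice, chosen after their values were seen, the difference was 0.38 (adjusted p = 0.0195) for Hspa1a and 0.42 (adjusted p = 0.0426) for Hspa1b.

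Against 72 h, the 9 h effect was larger by 0.23 for Hspa1a (SE 0.12, adjusted p = 0.208) and 0.41 for Hspa1b (SE 0.15, adjusted p = 0.0656), in a comparison that called 11.7% of genes and 0 members. Hspa1b passed without the 2 high sham mice (adjusted p = 0.0386), without the 2 mice whose sex did not match (adjusted p = 0.0457) and at the threshold with DESeq2 (adjusted p = 0.05). Between 24 and 72 h no member was called, and 0.0298% of genes were. No other member's CHI effect was called between any 2 times.

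Sham mice were then compared between times. From 9 h to 24 h 5 members were called over strains, 4 higher and 1 lower, where 44.7% of 18994 genes were called, so the count is near the background. These comparisons share the 9 h sham mice with the CHI comparisons above. Hspa5, the endoplasmic reticulum HSP70, was higher. Its counts ran from 4212 to 6606 at 9 h (median 5313, 22 mice) and from 5752 to 12940 at 24 h (median 7712, 22 mice), with 16 of the 24 h mice above every 9 h mouse, at +0.60 (SE 0.075, adjusted p = 3.83e-09).

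By strain, all 6 C57BL/6J sham mice at 24 h stood above the 6 at 9 h in Hspa5 (+0.78, SE 0.14, adjusted p = 6.71e-05), as did all 6 labelled gKO (+0.61, SE 0.14, adjusted p = 0.00151). In eRestore the 24 h mice had 5752, 6813, 7779, 8145 and 11125 counts, 4 of them above all 9 h mice (+0.51, adjusted p = 0.0399). In nRestore the 4 mice at 9 h had 4212, 4276, 5310 and 6063 and the 5 at 24 h had 6389, 6467, 6486, 7531 and 8760, which did not overlap, but the difference missed the threshold (+0.48, SE 0.17, adjusted p = 0.0693). The share of genes called was 21.8% in C57BL/6J, 22.1% in mice labelled gKO, 2.83% in eRestore and 5.04% in nRestore. The share of all genes without overlap between these groups was not counted.

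Hspb1, a small heat shock protein that holds unfolded proteins in solution, had 24.6 to 128.3 counts at 9 h (median 52.3) and 42.2 to 192.3 at 24 h (median 89.3), at +0.71 (SE 0.14, adjusted p = 3.5e-05). Hspe1, which caps the mitochondrial HSP60 folding chamber, had 540 to 1073 at 9 h (median 762) and 703 to 1527 at 24 h (median 987), at +0.38 (SE 0.079, adjusted p = 9.52e-05). The groups overlapped in both, with 4 and 5 of 22 later mice above all 9 h mice. Within strains Hspb1 was called in C57BL/6J (+1.16, adjusted p = 0.0012), and Hspe1 in C57BL/6J (+0.47, adjusted p = 0.0172) and in mice labelled gKO (+0.55, adjusted p = 0.00614).

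Hspa1b was higher at 24 h too, 108.8 to 314 at 9 h (median 198.2) against 127.5 to 970 (median 249), at +0.54 (SE 0.15, adjusted p = 0.00286), while its near-identical neighbour Hspa1a was at +0.02 (SE 0.11, adjusted p = 0.878). Summed, the pair was at +0.26 (SE 0.12, adjusted p = 0.0821), past no threshold. Hsp90aa1 was lower, 28425 to 36406 at 9 h (median 31466) against 22736 to 35080 (median 29308), at -0.12 (SE 0.043, adjusted p = 0.0176). That call was lost with DESeq2 and gene-length offsets (-0.07, adjusted p = 0.231), without C57BL/6J (adjusted p = 0.0908) and without the mice labelled gKO (adjusted p = 0.0636). The median TPM of Hsp90aa1 went from 1245 to 1285. It carries the shift of the typical gene between these times (+0.11 log2), so this rise is no check on the call. Hspa8, Hsp90ab1, Hsph1 and Dnajb1 were not called.

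From 9 h to 72 h 4 members were called, where 44% of genes were. Hspa5 (+0.34, SE 0.074, adjusted p = 0.000166), Hspb1 (+0.43, SE 0.14, adjusted p = 0.0104) and Hspe1 (+0.27, SE 0.079, adjusted p = 0.004) were higher, and Hsp90aa1 (-0.15, SE 0.043, adjusted p = 0.00304) was lower. Hsp90aa1 again lost the call with DESeq2 and gene-length offsets (-0.07, adjusted p = 0.251) and without C57BL/6J (adjusted p = 0.0943). Hspb1 lost it without C57BL/6J (adjusted p = 0.0636) or without the mice labelled gKO (adjusted p = 0.0768). Hspa1b was at +0.35 (adjusted p = 0.0521). It was called with DESeq2 and gene-length offsets (adjusted p = 0.0407) or its own size factors (adjusted p = 0.0404), without covariates (+0.42, adjusted p = 0.021) and without the 2 high sham mice (+0.38, adjusted p = 0.0094). Hsph1 was called lower without eRestore (-0.16, adjusted p = 0.0343). Between 24 and 72 h, which share 2 of their experiments, 0 members and 0.0158% of genes were called, although all 10 members were lower at 72 h (median -0.09) and 2 had an unadjusted p under 0.05, as had 6.44% of genes. None was called by DESeq2 in either setting.

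**Figure D4:**
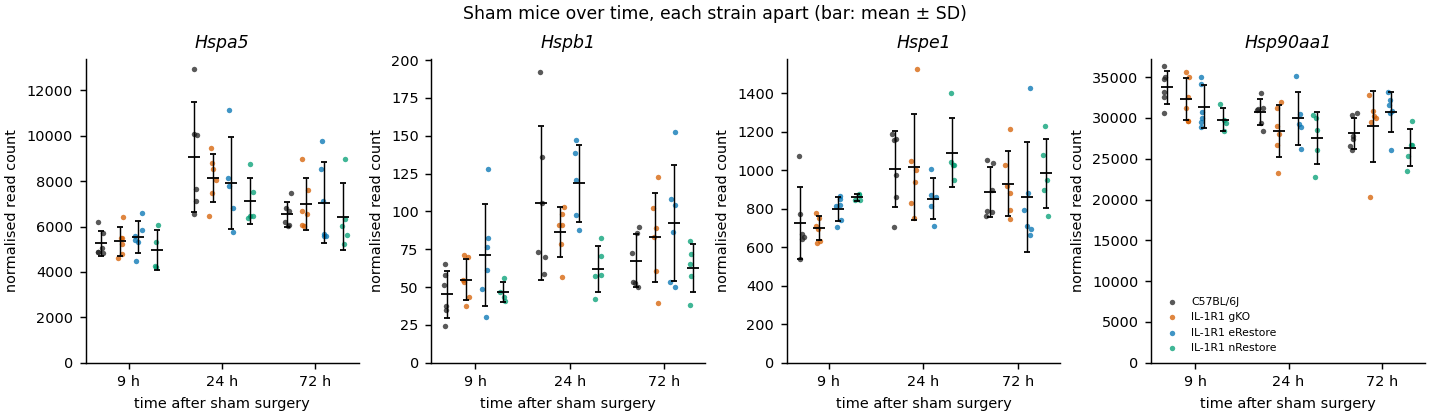
Normalised read counts of Hspa5, Hspb1, Hspe1 and Hsp90aa1 in each sham mouse at 9, 24 and 72 h, one colour per strain, with mean ± SD per strain and time. Over strains the median of Hspa5 goes from 5313 at 9 h to 7712 at 24 h.

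CHI mice were compared between times as well. Between 9 and 24 h 7 members were called (65.4% of genes), and between 9 and 72 h 6 were (65.7% of genes). Hspa5 was higher by 0.52 and 0.44, Hspb1 by 0.58 and 0.50, Hspe1 by 0.40 and 0.28 and Hspa8 by 0.08 and 0.11, at 24 and 72 h in turn. Hsp90aa1 was lower at both times (-0.16 and -0.16), and Hsp90ab1 at 24 h (-0.06, adjusted p = 0.0395). Hspa1a was lower at both (-0.45 and -0.39), whereas Hspa1b was at -0.04 and -0.01 (adjusted p = 0.704 and 0.92). Summed, the pair was at -0.25 (adjusted p = 0.00144) and -0.21 (adjusted p = 0.0104). These levels share no mouse with the sham comparison, but the same experiments and times of day.

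Other chaperones varied in sham mice as well. From 9 h to 24 h 30 list genes were higher and 13 lower of 85 tested, where 44.7% of all genes were called. In the endoplasmic reticulum list 13 of 19 were higher and 1 was lower, among them Sdf2l1 (+0.75, SE 0.11, adjusted p = 1.1e-07), a partner of Hspa5, and Creld2 (+0.48), Manf (+0.41) and Pdia6 (+0.38), targets of the unfolded protein response. The HSP90 list had 7 of 12 higher and none lower, led by Chordc1 (+0.55, SE 0.055, adjusted p = 8.27e-12), Ahsa2 (+0.27), Ppid (+0.21) and Stip1 (+0.20), which carries clients from HSP70 to HSP90. Hsf1, the heat shock transcription factor, was at +0.39 (SE 0.048, adjusted p = 2.04e-09) and Serpinh1 at +0.45. Lower were the synaptic J-domain genes Dnajc5 (-0.32) and Dnajc6 (-0.20), Hspa1l (-0.40), a neighbour of Hspa1a, and Hspb6 (-0.41). At 72 h 14 were higher and 18 lower than at 9 h, where 44% of all genes were called, and between 24 and 72 h none was called.

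Some markers were also called between times in sham mice, where 44.7% of all genes were called from 9 h to 24 h and 44% from 9 h to 72 h. From 9 h to 24 h 4 of 6 neuronal markers were lower (summed 5331 to 7411 TPM at 9 h, 3840 to 6358 TPM at 24 h), as were 3 of 4 choroid plexus markers, and from 9 h to 72 h 4 of 6 neuronal markers, all 4 choroid plexus markers and all 5 erythrocyte markers were lower. Their part in the members' differences was not tested.

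The count ratio of Hspa1b to Hspa1a, taken within each mouse and so free of library size, changed with time and not detectably with surgery. Its median log2 was -0.51 in sham and -0.41 in CHI mice at 9 h, 0.01 and 0.08 at 24 h, and 0.14 and 0.05 at 72 h. In 2-sided tests of 100000 permutations within strains, over 7 comparisons, it was higher in sham mice by 0.51 at 24 h (p = 2e-05, adjusted p = 3.5e-05) and by 0.56 at 72 h than at 9 h (p = 1e-05, the smallest possible, adjusted p = 2.33e-05). In CHI mice it was higher by 0.40 and 0.38 (both permutation p = 1e-05, adjusted p = 2.33e-05). The ratio in CHI less that in sham mice was 0.13 at 9 h (permutation p = 0.106, adjusted p = 0.148), 0.03 at 24 h (permutation p = 0.633) and -0.04 at 72 h (permutation p = 0.625). All 3 experiments at 9 h had medians between -0.48 and -0.35, and those of the later times lay between -0.04 and 0.26. The 9 h ratio therefore cannot be told apart from those experiments.

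**Figure D5:**
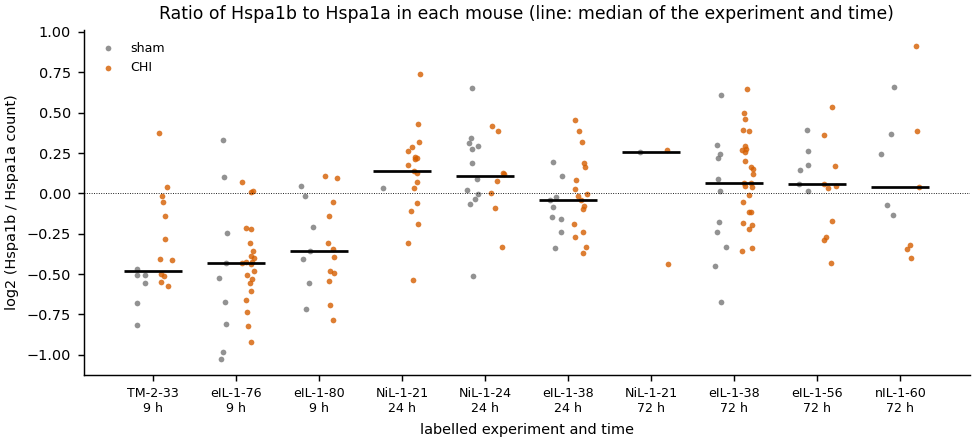
Log2 ratio of Hspa1b to Hspa1a counts in each mouse by labelled experiment and time, sham and CHI marked apart. The 3 experiments at 9 h have medians from -0.48 to -0.35, and the later ones from -0.04 to 0.26.

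Genes varying most like each member were ranked by the Pearson correlation of deviations from the mean of the own strain, surgery and time group, over 200 mice and 20111 genes. These are descriptions across mice that share library depth and dissection. Hspa5 went with the isomerases Pdia6 (r = 0.78) and Pdia3 (0.76). Hsph1 went with Hspa4 (0.76) and Hsp90b1 (0.73), Dnajb1 with the transcription factor gene Xbp1 (0.60) and Dusp4 (0.58), and Hspb1 with Serpinh1 (0.57) and Manf (0.51). Hspa1a went with Dgcr2 (0.61) and Pip4k2c (0.60) and Hspa1b with Synpo (0.61) and Hyou1 (0.59), the endoplasmic reticulum relative of HSP110. The abundant genes had higher values, Hspa8 with Rpn1 (0.83) and Pgam1 (0.83), Hsp90aa1 with Eif3c (0.82) and Ubqln1 (0.81), Hsp90ab1 with Pkm (0.80) and Nars (0.79), and Hspe1 with Atp6v0b (0.82) and Rps12 (0.82). Among the members, the closest pairs were Hsp90aa1 with Hsph1 (0.72) and Hspa1a with Hspa1b (0.69), and the most negative was Hsp90aa1 with Hspe1 (-0.39).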

How the data were processed

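Poly(A) RNA libraries were sequenced as paired-end reads. The authors aligned the reads to GRCm39 with STAR and estimated expression with Salmon (nf-core/rnaseq), as the study's methods state. They deposited estimated counts per gene (expected counts, not normalised) and TPM for all 200 mice, each column named for 1 library. Raw FASTQ reads were not used here.

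Counts were rounded and genes tested if a number of mice equal to the smaller group reached 10 counts. CHI was compared with sham in edgeR 4.0.16 (TMM factors, robust quasi-likelihood F test, R 4.3.3) within strain and time, with sex and age in months as covariates, and over strains with strain added. Differences between times used 1 mean per strain, surgery and time, with sex. SE was the log2 fold change divided by the root of F. DESeq2 1.42.0, with its own size factors or gene-length offsets, RLE factors, no count filter, no covariates, experiment in place of age, summed Hspa1a and Hspa1b, single experiments and omitted strains or mice were the alternatives. The 95% intervals are for the fitted mean difference, built from its SE, and are not ranges of single mice. The statistics were tested on simulated counts. Promoters were RefSeq's on GRCm39 and shared 31-base words came from GENCODE transcripts.

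The members and the lists were chosen with earlier results of these data known. Named genes were the members, Il1r1, Xist and Ddx3y, from each list up to 4 called genes of smallest p in C57BL/6J at 9 h and in sham mice at 24 h against 9 h, and up to 2 most similar genes per member. Genes called in an alternative and named for it were chosen after their values were seen.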

Additional observations from a re-analysis of the deposited data

Results flagged for a closer look

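Of 160 groups of 4 to 10 mice tested over the members, 20 held a mouse far from the rest by Dixon's criterion. Chance would give about 8 if the groups were independent, but they are not. Each group of mice entered once per member, many members vary together, and some mice were flagged in several members. The share over all genes is not given here. Hspa1b was highest at 970 normalised counts in 1 of 6 C57BL/6J sham mice at 24 h (next 394) and at 571 in 1 of 5 eRestore sham mice at 24 h (next 270). The first of these mice was also above the other 5 in 6 of the 10 members, and the second was above the other 4 in all 10 members, with 43211 for Hsp90ab1, 10407 for Hsph1 and 1846 for Dnajb1 far from the rest. At 72 h, 1 sham mouse labelled IL-1R1 gKO was lowest in Hspa1a (107.3, next 239.7), Hsp90aa1 (20320) and Hsp90ab1 (29002). At 9 h, another was lowest in Hsp90ab1 (28723) and Hsph1 (7076).

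In nRestore CHI mice the values far from the rest were 271 for Hspa1b and 39529 for Hsp90ab1 as the highest at 9 h, and 48029 for Hspa8 as the highest and 32091 for Hsp90ab1 as the lowest at 24 h. In nRestore sham mice they were 42616 for Hsp90ab1 as the highest at 9 h, and 25798 for Hsp90ab1 as the lowest and 1403 for Hspe1 as the highest at 24 h, both in the same mouse. In eRestore sham mice they were 7119 for Hsph1 as the lowest at 9 h, and, in 1 mouse at 72 h, 26031 for Hsp90aa1 as the lowest and 1424 for Hspe1 as the highest.

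The CHI effect differed between 9 and 24 h for Hspa1a (by 0.49, edgeR adjusted p = 0.00177) and for Hspa1b (by 0.62, adjusted p = 0.00291).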

How the results depend on the processing

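No paired analysis was possible because replicate numbers were given in accession order and pair no mice. Counts of members called stayed within 1.5 times the reported count in 260 alternatives and left that range in 36, and of the other values 1116 kept direction and side of the threshold, 45 gained a call, 13 lost one and 30 changed sign. Cause was not tested unless fewer mice or genes show it. Single experiments hold fewer mice.

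In C57BL/6J at 9 h, 1 member was called, against 2 with DESeq2 and gene-length offsets, 3 with its own size factors, 0 in the largest experiment and 1 to 2 without 1 sham mouse. At 24 h, 0 became 1 with DESeq2 and its own size factors and 3 with no count filter. In eRestore at 9 h, 0 became 1 with either DESeq2 setting and 0 to 1 without 1 sham mouse. In nRestore at 9 h, 0 became 2 with either DESeq2 setting, 1 with the pair summed, experiment for age, no covariates or no filter, and 0 to 2 without 1 sham mouse. These nRestore mice came from 1 experiment, so experiment for age only took age out of that fit. Over strains at 9 h, 2 became 1 with the pair summed (then 1 gene), 0 in TM-2-33 or eIL-1-76, and 2 to 3 without 1 sham mouse. At 24 h, 0 became 2 with DESeq2 and its own size factors, 4 without nRestore, 1 without the 2 mice of mismatched sex and 0 to 2 without 1 sham mouse. In sham mice from 9 to 72 h, 4 became 2 without C57BL/6J. For the CHI effect, 2 became 1 with the pair summed (9 against 24 h), and 0 became 1 with DESeq2, without the mismatched mice or without the 2 high sham mice (9 against 72 h). Settings that leave out the mismatched or high mice, or 1 sham mouse over all strains, and those of the CHI effect, were chosen after seeing the data. None of these counts is set against the share of all genes called in the same setting.

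Sign changes all concerned values past no threshold. Over strains at 9 h, Hsp90aa1 was -0.0348 with gene-length offsets, -0.0326 in TM-2-33, -0.0213 in eIL-1-80 and -0.0157 without eRestore. Hspe1 was 0.0457 in TM-2-33, Hsph1 0.0222 in eIL-1-80 and 0.00197 without C57BL/6J, and Dnajb1 0.000527 without gKO. In C57BL/6J at 9 h, Hsp90aa1 was 0.0216 in the largest experiment, and leaving out 1 sham mouse gave -0.0231 to 0.0149 for Hsp90aa1 and -0.189 to 0.0408 for Hspe1. Over strains at 24 h, Hsp90ab1 was 0.00824 in NiL-1-24, 0.00649 without covariates, 0.0196 without C57BL/6J and 0.00795 without the 2 high sham mice, and Hspb1 0.0466 without eRestore, 0.0408 without the 2 high sham mice and -0.0837 to 0.0147 without 1 sham mouse. In sham mice at 24 against 9 h, Hspa1a was -0.0467 without C57BL/6J, -0.0159 without eRestore and -0.0817 without the 2 high mice, Hsp90ab1 0.0106 with gene-length offsets and 0.0200 without nRestore, Hsph1 0.00447 without nRestore and Dnajb1 -0.00633 without the 2 high mice. At 72 against 9 h, Hspa1a (the pair summed) was 0.0607, Hspa8 -0.0227 without eRestore and -0.00190 without nRestore, and Dnajb1 0.00289 without C57BL/6J.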
